A study of Mus musculus with 15 samples.

Results

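The report describes 10 genes that carry out lipoprotein lipase (LPL) action and fatty acid uptake: Lpl, Gpihbp1, Lmf1, Angptl4, Angptl8, Cd36, Fabp4, Slc27a1, Slc27a4 and Vldlr. They were chosen by symbol, as the rows of the count table whose Entrez ID carries that mouse symbol. Each of the 10 had a row among 35794 Entrez IDs, and each passed the filter on low counts, which left 15208 genes. Poly(A) RNA of perigonadal fat pads, the fat beside the gonads, was sequenced from C57BL/6 mice aged 14 weeks, whose sex the labels do not give. The lean group was kept on chow. Diets began at 8 weeks of age, with a 60% high-fat diet (HFD) for the obese group. Weight loss mice, labelled SWAP, had 5 weeks of that diet and then 1 week of chow. Libraries used were 5 of lean, 5 of obese and 4 of weight loss fat. Replicate 5 of weight loss, with 230 counts in all, was left out. The series calls the samples independent, but whether each came from 1 animal is not stated, so the p-values measure the spread between these samples. No genetic change or drug was named for any group.

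Fat cells take up fatty acids from triglyceride carried in blood lipoproteins. LPL is made by adipocytes, folded with the help of the endoplasmic reticulum protein LMF1, and carried across the capillary wall by GPIHBP1 to the vessel lumen, where it cleaves triglyceride. ANGPTL proteins inhibit it: ANGPTL4 inactivates LPL within fat, and ANGPTL8, an insulin-induced protein, binds ANGPTL4 and changes its action. The freed fatty acids enter through CD36 and the fatty acid transport proteins of the Slc27a family, which also activate them to acyl-CoA, and are carried inside the cell by FABP4. The VLDL receptor binds triglyceride-rich lipoproteins beside LPL.

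Library totals ran from 13924770 to 33807887 counts. Levels are CPM, counts divided by the TMM-scaled library total in units of 1000000, and fold changes are log2 values with standard errors from edgeR's quasi-likelihood test, called at a Benjamini-Hochberg adjusted p under 0.05 over all 15208 genes. Adipocyte markers were abundant in every library, with a sum over 12 genes between 17938 and 38505 CPM and none of them at 0 throughout. That sum averaged 30147 CPM in lean, 21037 in obese and 26149 in weight loss fat. Cfd alone made up 10097, 3687 and 7377 CPM of these sums, so that they depend strongly on 1 gene. Of the 12, 4 were called lower in obese than in lean fat and 0 higher, when 3.85% of all genes were called lower and 5.86% higher. Adipoq, the adiponectin gene, was at 1835 ± 198, 2177 ± 362 and 2474 ± 230.5 CPM in lean, obese and weight loss fat (SD, n = 5, 5 and 4) and was called in no comparison. Markers of the epididymis, the sperm duct beside this pad in males, were uneven: the summed level of 14 such genes reached 8576 CPM in obese replicate 2, 6613 in obese replicate 5, 3585 in lean replicate 1 and 3284 in obese replicate 4. None of the remaining 10 libraries exceeded 562 CPM. Values of the 10 genes whose call changes without these 4 libraries are given below with and without them. So are the obese against lean counts of the gene lists in which edgeR called a gene.

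In obese fat the inhibitor gene Angptl4 and the lipoprotein receptor gene Vldlr rose and the transporter gene Slc27a1 fell, while no difference in Lpl, Gpihbp1 or Lmf1 passed the test. Thus 3 of the 10 genes passed the test, 2 higher and 1 lower, when 9.71% of all genes passed, 5.86% higher and 3.85% lower. The 10 genes and the gene lists below were chosen with earlier results of these data known. Their counts beside those of all genes are therefore descriptions. An unadjusted p under 0.05 was found for 5 of the 10, Cd36 and Angptl8 besides the called ones, and for 24.8% of all genes. The median log2 change over the 10 genes was -0.0576, beside -0.0208 over all genes tested. After 1 week back on chow, Slc27a1 rose and no other of the 10 passed, in a comparison in which 1.62% of all genes passed, 0.736% higher and 0.881% lower. An unadjusted p under 0.05 was found for 4 of the 10 and for 14.3% of all genes. The median was -0.0818 over the 10 genes and 0.0209 over all. Between weight loss and lean fat edgeR called 0 of the 10, as did DESeq2 and limma-voom, and 3 had an unadjusted p under 0.05 (Cd36, Slc27a4 and Angptl4), as did 11.4% of all genes. There 0.0329% of all genes passed, no member had groups that did not overlap, when 2.29% of all genes did, and the medians were -0.179 and 0.0033. The obese group enters 2 of the comparisons and so do the lean and the weight loss groups, so that the 3 comparisons are not independent of each other.

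**Figure D1:**
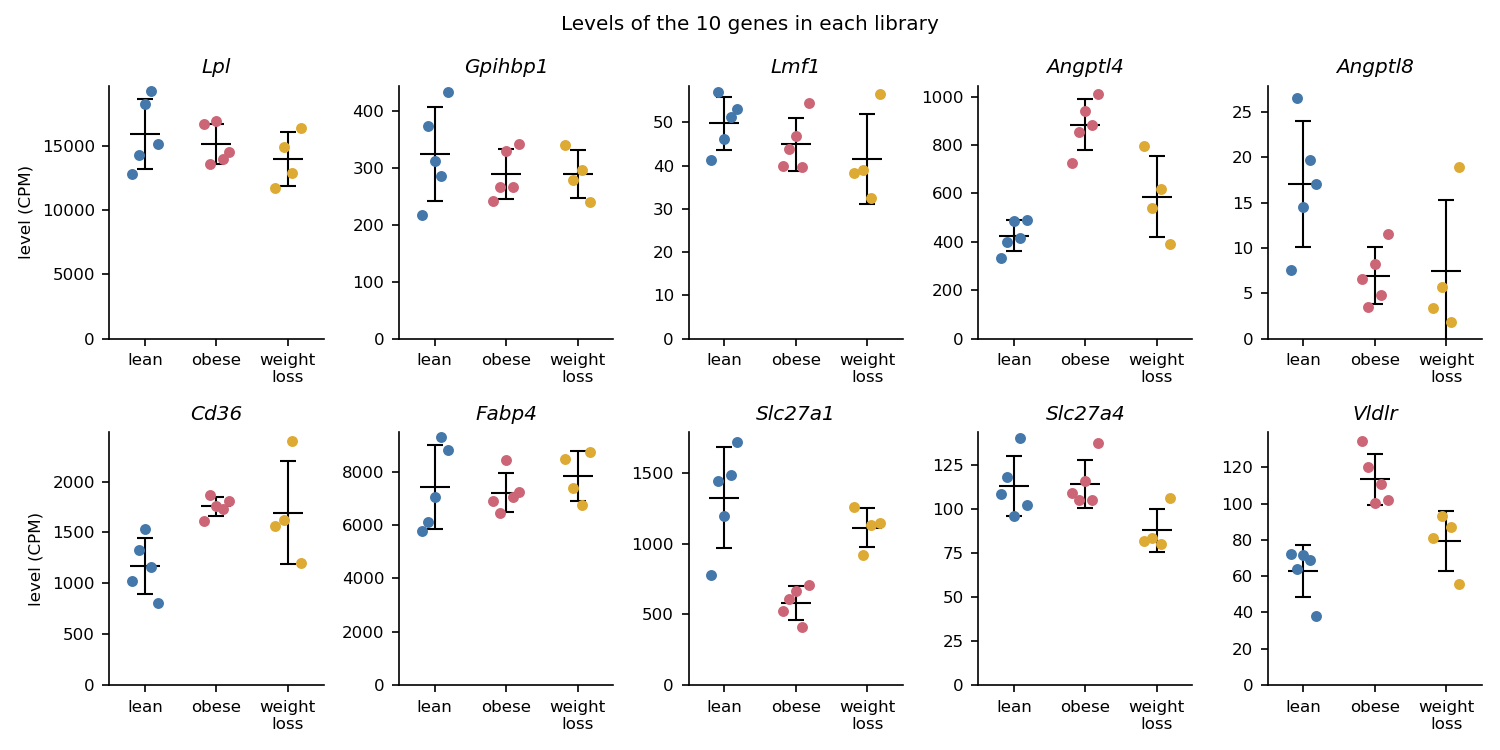
Level in CPM (vertical axes, each starting at 0) of each of the 10 genes in the 5 lean, 5 obese and 4 weight loss libraries. Points are libraries, and bars are the mean and SD. The lean and obese points lie apart for Angptl4, Cd36, Slc27a1 and Vldlr and overlap for the other 6 genes.

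Divided by the length of the principal transcript in GENCODE M21, the levels in lean fat were in the order Fabp4, Lpl, Slc27a1, Gpihbp1, Cd36, Angptl4, Slc27a4, Lmf1, Angptl8 and Vldlr. Fabp4 stood at 8279 ± 1759 CPM per kilobase and Lpl at 3874 ± 663 (SD, n = 5), and the libraries of these 2 genes did not overlap. Slc27a1 (474 ± 127.5), Gpihbp1 (392 ± 100.4) and Cd36 (345 ± 82.0) lay below Lpl without overlap and overlapped each other. Angptl4 lay apart at 128.5 ± 19.6 CPM per kilobase. The last 4 ran from Slc27a4 (27.9 ± 4.3) to Vldlr (7.90 ± 1.8), each overlapping the next. In obese fat Cd36 came next after Lpl at 516.5 ± 28.1 CPM per kilobase, and Slc27a1 came after Gpihbp1 and Angptl4 at 208 ± 42.3, overlapping Angptl4 at 267 ± 31.8. In weight loss fat Slc27a1 was again above Gpihbp1, at 398 ± 49.9 and 350 ± 50.9 CPM per kilobase (SD, n = 4), with overlapping libraries.

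Lpl (Entrez ID 16956, chromosome 8, 68880555 to 68906932 on mm10) is the gene of the lipase itself. It stood at 12803, 14269, 18250, 19269 and 15115 CPM in lean replicates 1 to 5. The obese libraries held 16691, 13567, 16941, 13958 and 14513 CPM, and the weight loss libraries 11682, 14889, 12870 and 16386 CPM. The 3 groups overlapped throughout, and the lowest and the highest library, weight loss replicate 1 and lean replicate 4, differed less than 2-fold. The log2 change from lean to obese fat was -0.07 ± 0.13 (95% interval -0.36 to 0.21, adjusted p = 0.783). From obesity to weight loss it was -0.12 ± 0.14 (interval -0.42 to 0.19, adjusted p = 0.791), and between weight loss and lean fat -0.19 ± 0.14 (interval -0.50 to 0.11, adjusted p = 0.631). A 1.5-fold change in either direction lies outside each of these intervals.

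Gpihbp1 (Entrez ID 68453, chromosome 15, 75596630 to 75598213), which encodes the capillary anchor of LPL, ran from 216 to 433 CPM in lean, 241 to 342 CPM in obese and 239 to 340 CPM in weight loss libraries. These ranges overlapped, with log2 changes of -0.16 ± 0.17 in obese against lean fat (adjusted p = 0.619) and -0.003 ± 0.18 in weight loss against obese fat (adjusted p = 0.997). Because Gpihbp1 is a gene of capillary endothelium, its level was also set against 12 endothelial markers in the same library. Their sum was 1425 to 2259 CPM in lean, 1683 to 2015 CPM in obese and 1314 to 2585 CPM in weight loss libraries, and none of the 12 was at 0 throughout. The most abundant, Cldn5, a tight junction gene, stood at 317 ± 61.4, 388 ± 37.8 and 372 ± 149 CPM in lean, obese and weight loss fat. Pecam1 had log2 changes of 0.09 ± 0.19 and 0.07 ± 0.20, and Cdh5, the VE-cadherin gene, of 0.18 ± 0.25 and 0.10 ± 0.26, in obese against lean and weight loss against obese fat. Of the 12, Vwf, the von Willebrand factor gene, fell in obese fat (log2 -0.70 ± 0.20, adjusted p = 0.0423) and is named because it was the 1 marker called. In that comparison DESeq2 called 1 of the 12 and limma-voom 0. Without the 4 libraries richest in epididymal transcripts edgeR called 0 of the 12 there, with 0 at an unadjusted p under 0.05. The log2 ratio of Gpihbp1 to the marker sum was -2.51 ± 0.24 in lean, -2.69 ± 0.31 in obese (SD, n = 5 each) and -2.67 ± 0.22 in weight loss fat (SD, n = 4). Exact two-sided permutation tests of this ratio gave p = 0.317, 0.929 and 0.333 for obese against lean, weight loss against obese and weight loss against lean. In bulk tissue, fewer cells of a type and less RNA per cell cannot be told apart.

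Lmf1 (Entrez ID 76483, chromosome 17, 25579174 to 25662831), the lipase maturation factor, was a low transcript. It ran from 41.3 to 57.1 CPM in lean and from 39.6 to 54.4 CPM in obese libraries. In weight loss replicates 1 to 3 it stood at 38.2, 38.9 and 32.6 CPM, and in replicate 4 at 56.6 CPM. The log2 changes were -0.15 ± 0.15, -0.11 ± 0.16 and -0.26 ± 0.16 for obese against lean, weight loss against obese and weight loss against lean, with adjusted p = 0.608, 0.823 and 0.558.

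Angptl4 (Entrez ID 57875, chromosome 17, 33774900 to 33781575), which encodes an inhibitor of LPL induced by fatty acids, fasting and low oxygen, rose about 2-fold in obese fat. Its level was 334, 401, 487, 415 and 488 CPM in lean replicates 1 to 5 and 727, 856, 939, 883 and 1010.2 CPM in obese replicates 1 to 5. The lowest obese library stood above the highest lean one. The change was 2.08-fold, a log2 value of 1.05 ± 0.17 (adjusted p = 0.00169). In weight loss fat Angptl4 stood at 794.5, 539, 617 and 392 CPM in replicates 1 to 4, so that replicate 1 lay within the obese range and replicate 4 within the lean range. The log2 change from obesity to weight loss was -0.59 ± 0.18 and did not pass (interval -0.97 to -0.21, adjusted p = 0.126), nor did that from lean to weight loss, 0.46 ± 0.18 (interval 0.09 to 0.84, adjusted p = 0.343). The fall from obesity was called by DESeq2's Wald test (adjusted p = 0.0302) and in edgeR without weight loss replicate 1 (log2 -0.77, adjusted p = 0.0432). Over the alternatives its adjusted p ran from 0.0302 to 0.935. When the 4 libraries richest in epididymal transcripts were dropped, which left 2 obese ones, the obese rise measured 0.90 in log2 and missed the threshold (adjusted p = 0.116). In obese replicate 1, which held 9.07 CPM of epididymal markers, Angptl4 was at 727 CPM, above each lean library.

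Angptl4 rose against the lipase it inhibits. The ratio of Angptl4 to Lpl counts was 0.0216 to 0.0323 in the lean and 0.0436 to 0.0696 in the obese libraries, without overlap. The log2 ratio was -5.23 ± 0.21 in lean and -4.10 ± 0.26 in obese fat (SD, n = 5 each), a difference of 1.12 (exact two-sided permutation p = 0.00794, the smallest this design allows, and 0.0238 adjusted over 9 ratio tests). Without any 1 of the obese libraries the adjusted value was 0.0714. In weight loss fat the log2 ratio was -4.61 ± 0.64 (SD, n = 4), with replicate 1 at -3.88, within the obese range, and replicate 4 at -5.39, among the lean ones. Neither difference of the weight loss group passed the exact permutation test (p = 0.143 against obese and 0.0714 against lean fat). Without weight loss replicate 4 the difference from lean fat was 0.88 (exact permutation p = 0.0179, 0.0402 adjusted).

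Angptl8 (Entrez ID 624219, chromosome 9, 21835510 to 21837347) was the least abundant of the 10 genes by CPM. It stood at 7.54, 26.5, 14.5, 19.7 and 17.0 CPM in lean replicates 1 to 5 and at 6.62, 3.51, 8.19, 4.82 and 11.6 CPM in the obese ones. In weight loss replicates 1 to 3 it was 3.39, 5.69 and 1.85 CPM, and in replicate 4 it was 19.0 CPM. Lean replicate 1 lay within the obese range, and weight loss replicate 4 within the lean range. The log2 changes were -1.29 ± 0.53 for obese against lean (interval -2.43 to -0.16, adjusted p = 0.141) and -1.19 ± 0.57 for weight loss against lean fat (adjusted p = 0.445). The first was called when only both groups were fitted (-1.30, adjusted p = 0.0422) and without weight loss replicate 4 (-1.32, adjusted p = 0.048). Without that library the change from obesity to weight loss turned from 0.11 to -0.93 (adjusted p = 0.359). Angptl8 lies within the bounds of Dock6, and whether the counting used strand is not given in the sources used here, so that reads could be shared out between these genes. Dock6, at 82.9 CPM on average, had a log2 change of -0.21 ± 0.20 in obese against lean fat (adjusted p = 0.592).

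**Figure D2:**
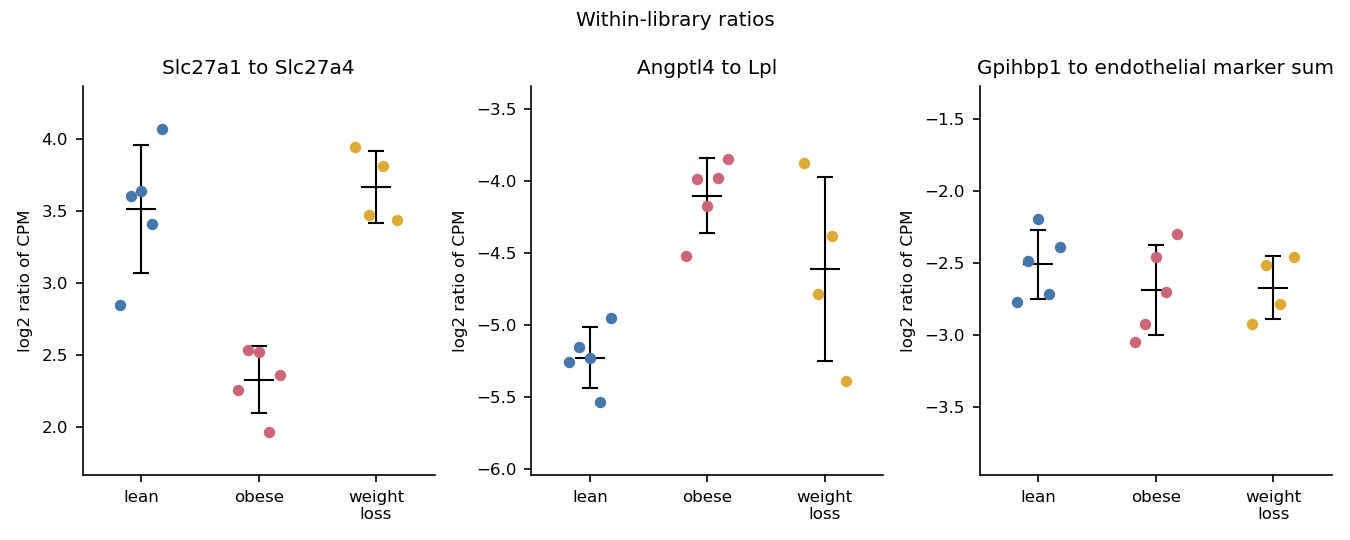
Log2 ratio of CPM values (vertical axes, all spanning the same range) within each library, for Slc27a1 to Slc27a4, Angptl4 to Lpl and Gpihbp1 to the sum of 12 endothelial markers. Points are libraries, and bars are the mean and SD. The obese points lie apart from the lean ones in the first and second panels and overlap them in the third.

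Of the genes of fatty acid uptake, the 2 transport protein genes behaved unequally. Slc27a1 (Entrez ID 26457, chromosome 8, 71568728 to 71587307) encodes FATP1, an insulin-responsive transporter with acyl-CoA synthetase activity, and Slc27a4 (Entrez ID 26569, chromosome 2, 29802634 to 29817522) encodes its relative FATP4. Their start site windows, and that of Vldlr, are shown because Slc27a1 and Vldlr are the genes with such a window that were called in opposite directions, and Slc27a4 is the relative that was not called. Each runs from 250 bases before to 50 after an annotated start in RefSeq on GRCm38.p6 (mm10), plus strand, 5′ to 3′, and is the window nearest to the start of a principal transcript. Capitals mark the GC box GGGCGG or its reverse complement CCGCCC.
Slc27a1, chr8:71568621-71568920: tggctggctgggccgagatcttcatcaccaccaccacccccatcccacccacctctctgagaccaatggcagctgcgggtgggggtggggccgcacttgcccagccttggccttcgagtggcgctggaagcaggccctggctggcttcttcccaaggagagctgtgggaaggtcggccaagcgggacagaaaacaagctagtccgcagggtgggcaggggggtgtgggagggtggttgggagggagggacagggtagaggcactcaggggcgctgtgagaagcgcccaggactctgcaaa
Slc27a4, chr2:29802384-29802683: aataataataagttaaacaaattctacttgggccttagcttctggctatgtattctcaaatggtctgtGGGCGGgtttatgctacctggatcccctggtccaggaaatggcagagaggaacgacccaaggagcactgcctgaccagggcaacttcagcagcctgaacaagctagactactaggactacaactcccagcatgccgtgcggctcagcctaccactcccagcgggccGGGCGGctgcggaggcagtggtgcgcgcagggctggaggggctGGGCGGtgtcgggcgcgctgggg
Vldlr, chr19:27216770-27217069: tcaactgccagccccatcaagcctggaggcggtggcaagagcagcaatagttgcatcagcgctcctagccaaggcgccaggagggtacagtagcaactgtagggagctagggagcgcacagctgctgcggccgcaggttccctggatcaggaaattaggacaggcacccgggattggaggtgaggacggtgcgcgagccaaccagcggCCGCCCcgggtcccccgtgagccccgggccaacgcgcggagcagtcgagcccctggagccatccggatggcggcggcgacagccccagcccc

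The start of the Vldlr window shown lies 337 bases from the nearest start of a principal transcript, beside 11 for Slc27a1 and 0 for Slc27a4. The Slc27a4 window held 3 GC boxes, at -182, -16 and 28 from the start, the Vldlr window shown 1 at -42, and the Slc27a1 window shown none. The other Vldlr window, chr19:27216234-27216533, held none. Of the other 2 Slc27a1 windows, 1 held a GC box at -139 and 1 held 3, at -159, -48 and -17. At least 1 GC box stands in 35.7% of the 32851 windows of this length in the table. The half-site AGGTCA, a motif of nuclear receptors such as PPARG, was in none of the 3 windows on either strand and in 16.3% of all windows. The Cd36 window, not shown here, held it as TGACCT at -228. The pair AGGTCANAGGTCA, which holds 2 of these half-sites, was in 0.0396% of all windows and in none of the 9 windows of the 6 members that matched (Slc27a4, Cd36, Slc27a1, Angptl8, Lmf1 and Vldlr). The E-box CACGTG was in 1 of the other 2 Slc27a1 windows, at -202 from a start on chr8:71570344-71570643, and in 7.15% of all windows. In the windows shown the share of G and C was 65.7% for Slc27a1, 58.7% for Slc27a4 and 68.0% for Vldlr, beside a median of 52.7% over all windows. It was 43.0% in the other Vldlr window.

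Slc27a1 stood at 781, 1439, 1197, 1486 and 1720 CPM in lean replicates 1 to 5. In obese replicates 1 to 5 it was 521, 608, 663, 409 and 706 CPM, and in weight loss replicates 1 to 4 it was 1257, 923, 1128 and 1146 CPM. Each obese library lay below each lean and each weight loss library. Slc27a1 fell 2.28-fold in obese fat, a log2 change of -1.19 ± 0.20 (adjusted p = 0.00195), and this call was kept in each of the 24 alternatives that fitted the gene at the same threshold, the one that drops the 4 libraries richest in epididymal transcripts among them. It then rose 1.92-fold with weight loss (log2 0.94 ± 0.20, adjusted p = 0.0311), and ended at a log2 value of -0.25 ± 0.20 from lean fat (interval -0.69 to 0.19, adjusted p = 0.67).

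The rise of Slc27a1 with weight loss was close to the threshold. Its adjusted p was 0.0736, 0.0644, 0.0648 and 0.0765 when obese replicates 1, 2, 3 and 4 were left out in turn and 0.0808, 0.0811 and 0.0704 without weight loss replicates 1, 3 and 4, while the log2 value stayed between 0.84 and 1.02 over the libraries left out. With a covariate for epididymal transcripts it was 0.76 (adjusted p = 0.613), and without the 4 libraries richest in them 0.91 (adjusted p = 0.175). Over the alternatives the adjusted p ran from 0.000928 to 0.613. In obese replicates 1 and 3, with 9.07 and 462 CPM of epididymal markers, Slc27a1 was at 521 and 663 CPM, within the range of the other obese libraries.

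Slc27a4 did not move with its relative. It ran from 96.3 to 140.4 CPM in lean and from 105.0 to 137 CPM in obese libraries (log2 0.02 ± 0.12, interval -0.25 to 0.28, adjusted p = 0.957). In weight loss replicates 1 to 3 it stood at 81.8, 83.5 and 80.4 CPM, below each lean and obese library, and in replicate 4 at 106 CPM. The log2 change from obesity to weight loss was -0.38 ± 0.13 (adjusted p = 0.19). The ratio of Slc27a1 to Slc27a4 was 7.19 to 16.8 in lean, 3.90 to 5.79 in obese and 10.8 to 15.4 in weight loss libraries, with the obese libraries apart from both other groups. In log2 the ratio was 3.51 ± 0.44, 2.33 ± 0.23 and 3.66 ± 0.25 in lean, obese and weight loss fat (SD, n = 5, 5 and 4). It was lower in obese than in lean fat by a log2 difference of -1.19 and higher in weight loss than in obese fat by 1.34, each with an exact two-sided permutation p of 0.00794 (0.0238 adjusted over 9 tests). Without any 1 of the obese libraries the adjusted values were 0.0714 and 0.0857, and the second was 0.0536 without weight loss replicate 1, 2 or 3 and 0.0402 without replicate 4. Weight loss and lean fat differed by 0.15 (exact permutation p = 0.587).

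Cd36 (Entrez ID 12491, chromosome 5, 17781690 to 17888959), the main fatty acid receptor of the fat cell surface and a gene of capillary endothelium and macrophages as well, was at 1025, 1332, 1532, 1161 and 806 CPM in lean replicates 1 to 5. The obese libraries stood close together at 1615, 1870.1, 1758, 1726 and 1808 CPM, each above each lean library. Cd36 was thus 1 of 4 members whose lean and obese libraries did not overlap, when 10.3% of all genes did not overlap. Its log2 change was 0.58 ± 0.18 and missed the threshold (interval 0.19 to 0.97, adjusted p = 0.0572). It passed in 7 of 24 alternatives, among them DESeq2 (adjusted p = 0.0231), limma-voom (0.0447) and edgeR without lean replicate 3 (0.0279), weight loss replicate 3 (0.032) or weight loss replicate 4 (0.047). In weight loss fat Cd36 was 1559, 1617, 2402 and 1197 CPM, and replicate 4 lay in the lean range while replicate 3 was the highest of the 14 libraries. The log2 change was -0.05 ± 0.19 against obese fat (adjusted p = 0.947) and 0.53 ± 0.19 against lean fat (adjusted p = 0.311).

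Fabp4 (Entrez ID 11770, chromosome 3, 10204342 to 10208616), which encodes the fatty acid binding protein of adipocytes, was the most abundant of the 10 genes per length. It ran from 5796 to 9301 CPM in lean, 6454 to 8429 CPM in obese and 6757 to 8741 CPM in weight loss libraries, with overlap of all groups. The log2 change in obese against lean fat was -0.04 ± 0.14 (interval -0.34 to 0.26, adjusted p = 0.897), and in weight loss against obese fat 0.12 ± 0.15 (interval -0.20 to 0.44, adjusted p = 0.793).

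Vldlr (Entrez ID 22359, chromosome 19, 27216480 to 27254231) rose in obese fat. The lean libraries stood at 72.4, 64.2, 71.5, 68.9 and 38.0 CPM and the obese ones at 134, 120.1, 100.5, 111 and 102 CPM. The lowest obese library lay above the highest lean one, and the change was 1.80-fold (log2 0.85 ± 0.18, adjusted p = 0.00884). In weight loss replicates 1 to 4 Vldlr was at 81.0, 93.4, 86.9 and 55.8 CPM, each below each obese library. This made Vldlr 1 of 2 members, with Slc27a1, whose weight loss and obese libraries did not overlap, when 6.65% of all genes did not. The log2 change from obesity, -0.52 ± 0.19 (interval -0.92 to -0.12), did not pass (adjusted p = 0.213), and weight loss against lean fat differed by 0.33 ± 0.19 (adjusted p = 0.527). When the 4 libraries richest in epididymal transcripts were dropped, the obese rise measured 0.96 in log2 and missed the threshold (adjusted p = 0.129). In obese replicates 1 and 3 Vldlr was at 134 and 100.5 CPM. Vldlr lies within the bounds of the long noncoding RNA gene Gm35438 (27101671 to 27316698), which, unlike Dock6, is not among the Entrez IDs counted. Whether reads of Gm35438 were counted to Vldlr was not tested.

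**Figure D3:**
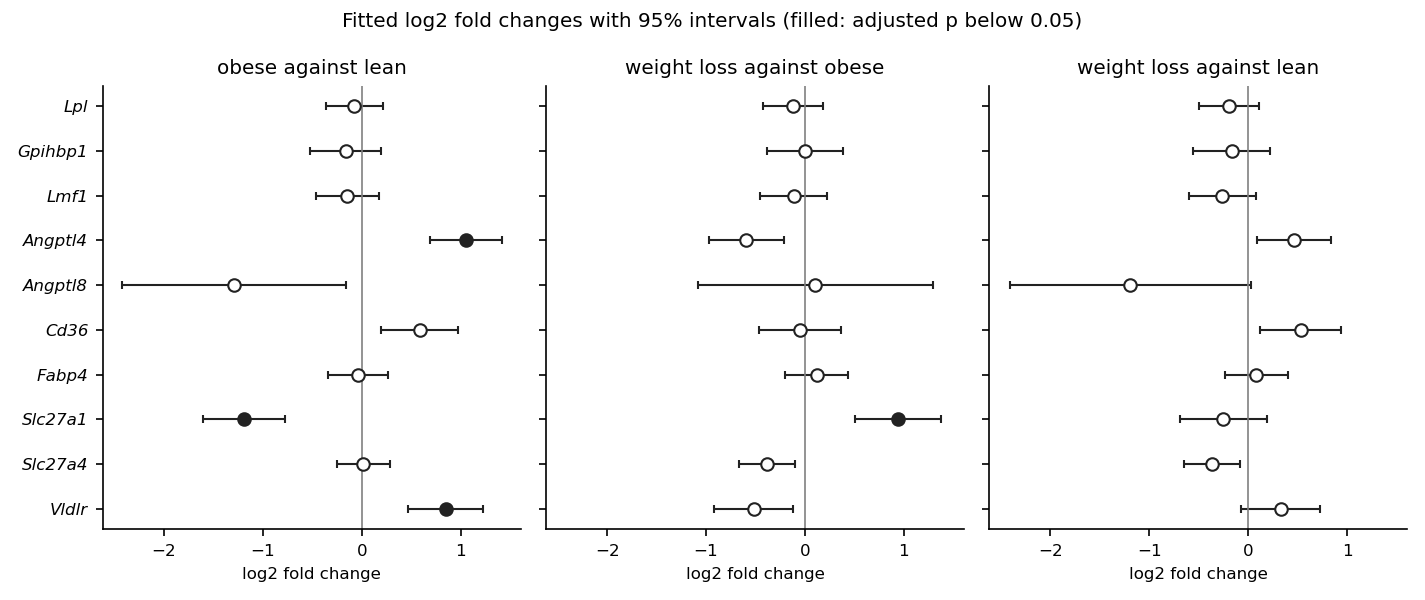
Fitted log2 fold change of each of the 10 genes (horizontal axis) in the 3 comparisons, with the 95% interval as bars. Filled points passed an adjusted p of 0.05 over all genes: Angptl4, Slc27a1 and Vldlr in obese against lean fat, and Slc27a1 in weight loss against obese fat.

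Weight loss replicate 4 stood at an end of its group for 9 of the 10 genes. It held the highest level of Lpl, Lmf1, Angptl8, Fabp4 and Slc27a4 and the lowest of Gpihbp1, Angptl4, Cd36 and Vldlr among the 4 weight loss libraries. Its value lay within the lean range for each of the 10 genes. It also stood apart in markers of other cells: smooth muscle markers summed to 1897 CPM, against 550.5 to 580 CPM in the other 3 weight loss libraries, and skeletal muscle markers to 163 CPM, against 36.3 to 69.8 CPM. Its adipocyte marker sum, 33499 CPM, was the highest of the group, the others lying between 21647 and 24933 CPM. Its epididymal marker sum was 66.1 CPM, against 4.70 CPM or less in the other 3. The part of these cells in its member levels was not tested.

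By likeness over the 14 libraries (Pearson r of log2 CPM, 9675 other genes of at least 10 CPM on average compared), Slc27a1 was nearest to Acad10 (0.962), Rnf166 (0.952) and 1700037H04Rik (0.942). Angptl4 was nearest to Cfb (0.939), Uchl1 (0.926) and Fads3 (0.924), and Vldlr to Cpt1a (0.959), Tgm4 (0.955) and Sema3c (0.944). Cd36 was nearest to Hsdl2 (0.977), and Angptl8 to Slc25a1 (0.969), the mitochondrial citrate carrier gene. Lpl and Fabp4 had lower best values, 0.888 with Coa5 and 0.877 with Tmem69. Among the members, Slc27a1 and Vldlr were the most opposed pair (-0.837), and Lmf1 and Angptl8 the most alike (0.906). These values are descriptions over libraries that share 3 group means, and differences between the groups enter each of them.

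The other genes of LPL handling, a list of 24 partners, cofactors and lipoprotein receptors chosen by known role, had 23 tested and a median log2 change of 0.259 in obese against lean fat, beside -0.0208 over all genes. Of the 23, 3 rose and 1 fell, when 5.86% of all genes passed higher and 3.85% lower. Pltp, which encodes phospholipid transfer protein, rose from 121 ± 23.8 to 259 ± 39.7 CPM (log2 1.09 ± 0.25). Hspg2, the gene of the basement membrane proteoglycan perlecan, rose by 0.82 ± 0.20, and Lipa, lysosomal acid lipase, by 0.60 ± 0.17. Sort1, the gene of the sorting receptor sortilin, fell by 0.31 ± 0.09 (adjusted p = 0.0498). Apoe, the most abundant of the list, stood at 4191 ± 898, 4076 ± 847 and 5404 ± 1045 CPM in lean, obese and weight loss fat and was not called. In weight loss against obese fat edgeR called 0 of the 23, with 4 at an unadjusted p under 0.05, and DESeq2 and limma-voom called 0. Against lean fat edgeR called 0 as well, with 8 at an unadjusted p under 0.05, 2 called by DESeq2 and 0 by limma-voom. Over all genes 14.3% and 11.4% had such a p in these comparisons.

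Of 21 other genes of fatty acid uptake, binding and activation, 17 were tested, with a median log2 change of 0.0305 in obese against lean fat. Fabp5, the fatty acid binding protein of macrophages and epidermis, rose from 164.5 ± 34.3 to 298 ± 73.8 CPM (log2 0.86 ± 0.19, adjusted p = 0.0141). Acsl1, the main acyl-CoA synthetase of fat cells, fell from 1310.0 ± 219 to 949 ± 64.0 CPM (log2 -0.46 ± 0.12, adjusted p = 0.0256) and was 1219.9 ± 130 CPM in weight loss fat. The acyl-CoA binding protein gene Dbi, the most abundant, stood at 2807 ± 334 and 2814 ± 392 CPM (adjusted p = 0.991). In weight loss against obese fat edgeR called 0 of the 17, with 2 at an unadjusted p under 0.05, while DESeq2 called 1 and limma-voom 0. Against lean fat edgeR, DESeq2 and limma-voom called 0, with 1 at an unadjusted p under 0.05.

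Of 20 transcription factors and cofactors that act on these genes, 7 fell in obese fat and none rose, with a median log2 change of -0.569. Over all genes 3.85% passed lower and 5.86% higher. Pparg, the master regulator of fat cells and a known activator of Lpl, Cd36, Fabp4, Slc27a1 and Angptl4, fell from 242 ± 39.2 to 153 ± 27.2 CPM (log2 -0.66 ± 0.14, adjusted p = 0.00915). Cebpa, also the most abundant of the list, fell from 542 ± 69.9 to 365 ± 21.3 CPM (log2 -0.57 ± 0.11). Mlxipl, the gene of the glucose-sensing factor ChREBP, fell by 1.14 ± 0.19 and the coactivator gene Ppargc1b by 1.73 ± 0.34. The other 3, named after their values were seen, were Klf15, Srebf1 and Rxrg, at log2 values of -0.85, -0.70 and -0.77. In weight loss against obese fat the median was 0.371, beside 0.0209 over all genes, and edgeR called none of the 20 genes. Of them 10 had an unadjusted p under 0.05, when 14.3% of all genes did, and DESeq2 called 0 and limma-voom 0. Against lean fat each of these tools called 0, with 3 at an unadjusted p under 0.05.

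**Figure D4:**
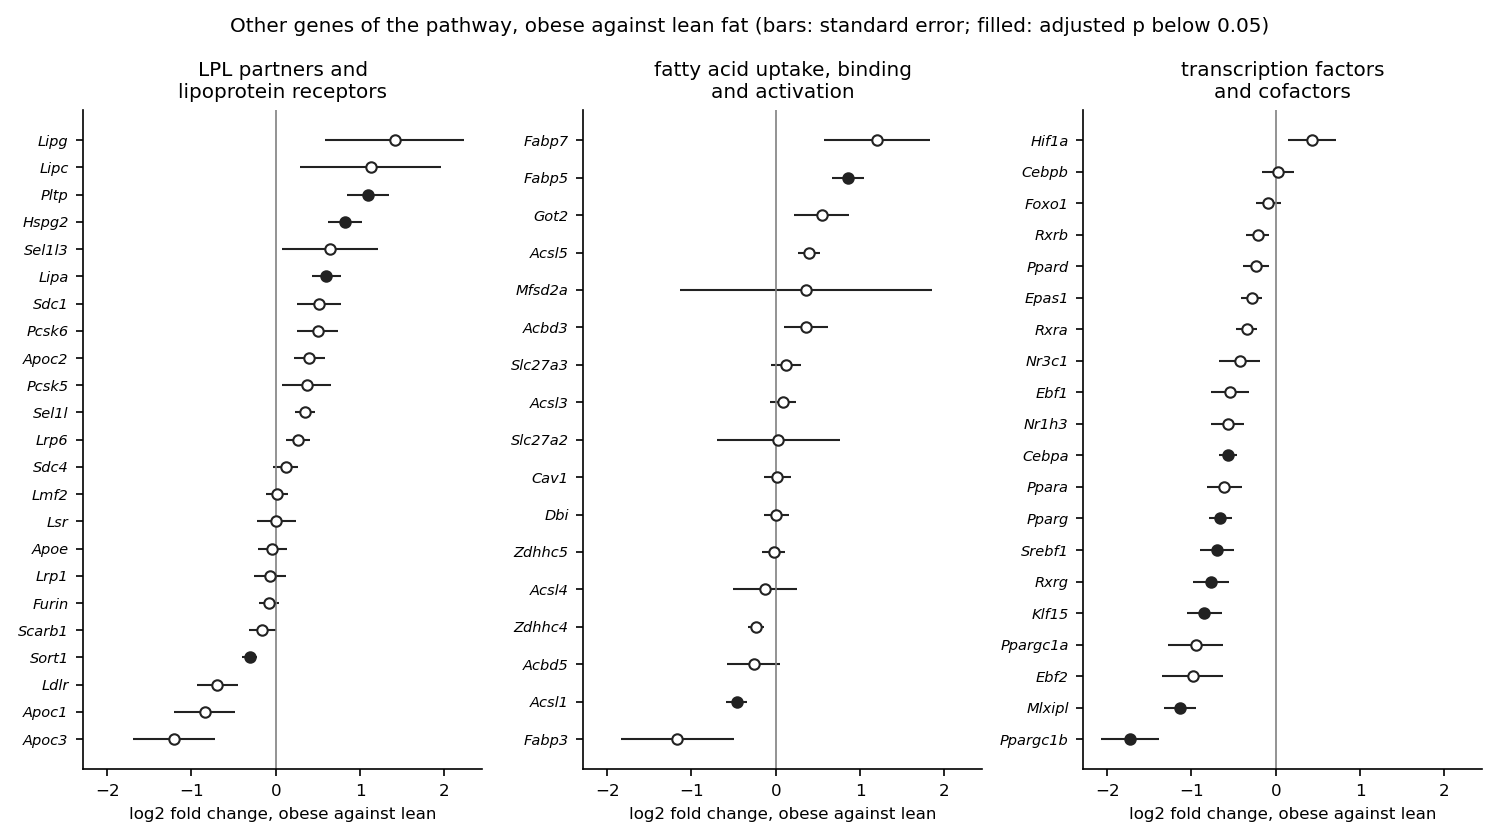
Log2 fold change in obese against lean fat (horizontal axis) of the tested genes of 3 lists: LPL partners and lipoprotein receptors, fatty acid uptake, binding and activation, and transcription factors and cofactors. Bars are standard errors, and filled points passed an adjusted p of 0.05, 4 of 23, 2 of 17 and 7 of 20 in the order of the panels.

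Markers of some other cells differed between obese and lean fat as well. Of 14 macrophage markers 9 rose in obese fat and none fell, with a median log2 change of 1.14. Over all genes 5.86% passed higher and 3.85% lower. The sum of the 14 was 462 to 1009 CPM in lean, 1043 to 1559 CPM in obese and 631.5 to 1597 CPM in weight loss libraries, with none at 0 throughout. C1qa, the most abundant, was at 132 ± 38.5 and 291 ± 48.1 CPM in lean and obese fat, and Adgre1 rose by 1.52 ± 0.43. From obesity to weight loss edgeR called 0 of the 14, with a median of -0.114 and 1 at an unadjusted p under 0.05. DESeq2 called 1 there and limma-voom 0. In weight loss against lean fat the median of the 14 was 0.82, with 12 at an unadjusted p under 0.05, 4 called by DESeq2 and 0 by edgeR or limma-voom. Over all genes 11.4% had such a p there. Macrophages also express Lpl, Cd36, Lipa, Fabp5 and Pltp, and their part in these levels was not tested. Of 10 progenitor markers 4 rose and of 12 adipocyte markers 4 fell, Acsl1 among them, which stands in 2 lists. The adipocyte marker sum was 24190 to 38505 CPM in lean, 17938 to 25544 CPM in obese and 21647 to 33499 CPM in weight loss libraries, with Cfd, its most abundant gene, at 10097 ± 2749, 3687 ± 800.2 and 7377 ± 3521 CPM. Plin1, the lipid droplet coat gene, had a log2 change of -0.44 ± 0.20 (adjusted p = 0.186). The part of fat cell content in the fall of Slc27a1 was not tested. Without the 4 libraries richest in epididymal transcripts, which left 2 obese ones, edgeR called none of the 22 tested LPL handling genes, 18 uptake genes, 14 macrophage or 12 adipocyte markers in obese against lean fat, 1 of the 20 transcription factors and cofactors (lower) and 1 of the 10 progenitor markers (higher). Of these, 5, 3, 10, 5, 9 and 6 in the same order had an unadjusted p under 0.05, and the median log2 changes were 0.129, 0.0268, 1.26, -0.522, -0.532 and 0.739.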

How the data were processed

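Poly(A) RNA was sequenced in 15 libraries. The deposited table holds expected counts per Entrez ID made by the authors, not normalized, with 34.65% of values not whole (tolerance 1e-06). The build was mm10, per the submitters' processing notes, while the aligner and counter were not given in the sources used here. Lines that shared an ID were summed (74 IDs, at most 1 line of each with reads), counts were rounded, and symbols came from RefSeq (32919 IDs). Libraries under 1000000 counts were left out, which removed weight loss replicate 5. The totals set the precision and cover counting error only.

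Genes were kept by filterByExpr, scaled by TMM and fitted in 1 model of 3 groups with edgeR 4.0.16 (glmQLFit, glmQLFTest, two-sided) in R 4.3.3, with Benjamini-Hochberg adjustment over all genes. Standard errors are the absolute log2 change over the square root of F, and intervals cover 95%. Log2 CPM used a prior count of 2. The 9 ratio tests were exact two-sided permutation tests over libraries. The members and lists were chosen with earlier results of these data known. In addition, 1 gene was taken out of a pathway list after the data were seen and is not reported here. Genes were named by rule: the 10 members, up to 4 called genes of each pathway list with the smallest p, the most abundant gene of each list, and 5 cell markers. Lists of mesothelial, smooth muscle, lymphocyte, skeletal muscle and red cell markers are summarised in the closing section. On data simulated from these libraries, 2-fold changes were found in 42.4% of changed genes (obese against lean), 33.3% (weight loss against obese) and 28.3% (weight loss against lean), and 1.5-fold changes in 2.02%, 5.05% and 1.01%. Each simulation changed 99 genes by each fold, drawn at random over all levels among 15030 or 15037 tested. That is a smaller share than was called in obese against lean fat. These values therefore do not give the power for the 10 genes. Alternatives were other scalings and filters, DESeq2 1.42.0, limma-voom (limma 3.58.1), a fit of both compared groups alone, a block for the replicate number, a threshold of 0.01, an epididymis covariate and each library left out. Leaving out the 4 libraries richest in epididymal transcripts was added after the data were seen. Plots were made with matplotlib 3.10.9.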

Additional observations from a re-analysis of the deposited data

Results flagged for a closer look

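In 2 of 30 sets of values, each 1 gene in 1 group, a library stood far from the others of its group by Dixon's test at the 95% level, and chance gives about 1 in 20. Slc27a4 was at 106 CPM in weight loss replicate 4, against 80.4 to 83.5 CPM in the other 3, a gap of 0.867 of the group's range on the log2 scale. Vldlr was at 38.0 CPM in lean replicate 5, against 64.2 to 72.4 CPM in the other 4, a gap of 0.813 of the range. Without that lean library the rise of Vldlr in obese fat had a log2 value of 0.71 (edgeR, adjusted p = 0.0108), and without weight loss replicate 4 the difference of Slc27a4 from obese fat was -0.49 (adjusted p = 0.114). Neither call changed.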

How the results depend on the processing

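Of the 10 genes, 3, 1 and 0 were called in obese against lean, weight loss against obese and weight loss against lean fat. The last count was 0 in all 25 alternatives. In obese against lean fat the count was 5 when only the groups compared were fitted and 1 when the 4 libraries with most epididymal transcripts were dropped, and 3 to 5 with 1 library left out, the 5 without weight loss replicate 4. In weight loss against obese fat it was 2 with DESeq2 and 0 with the epididymis covariate, at an adjusted p of 0.01 and with those 4 libraries dropped, and 0 to 1 with 1 library left out. Leaving out those 4 libraries leaves fewer samples, and no other cause was tested.

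Over all genes, 1477, 246 and 5 were called. DESeq2 called 2236, 678 and 253, the epididymis covariate left 737, 28 and 2, and 125, 20 and 0 were called without the 4 libraries. With 1 library left out the counts ran from 849 to 1673, 141 to 265 and 0 to 130, the 130 without weight loss replicate 4. Weight loss against lean gave 1 with limma-voom and 0 with only the groups compared.

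Same-numbered libraries correlated between -0.553 and 0.399, with 4 of 13 pairs over 0.1. Lean replicate 2 and weight loss replicate 1, of unlike numbers, reached 0.604. These values did not show that the numbers pair samples, and they cannot exclude it. With the replicate block 4, 1 and 0 members and 1618, 172 and 2 genes were called, with Cd36 added in obese against lean fat, and the log2 values of Gpihbp1 and Angptl8 in weight loss against obese fat were 0.097 and -0.184.

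Small log2 changes turned sign. In obese against lean fat these were Lpl (0.048 with the epididymis covariate, 0.00981 without the 4 libraries), Fabp4 (0.06 with the covariate) and Slc27a4 (-0.000598 with no filter, -0.00832 with a CPM filter, -0.025 with the covariate, -0.022 without the 4). In weight loss against obese fat they were Gpihbp1 (0.015 by library size, 0.012 without the 4), Angptl8 (-0.328 with limma-voom, -0.054 with the covariate), Cd36 (0.00452 without the 4) and Fabp4 (-0.038 with the covariate). With 1 library left out, ranges that crossed 0 were -0.121 to 0.029 (Fabp4) and -0.09 to 0.078 (Slc27a4) in obese against lean fat, -0.092 to 0.068 (Gpihbp1), -0.933 to 0.43 (Angptl8) and -0.268 to 0.071 (Cd36) in weight loss against obese fat, and -0.00939 to 0.151 (Fabp4) in weight loss against lean fat. The cause was not tested.

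Without the 4 libraries the log2 ratio of Slc27a1 to Slc27a4 differed by -1.293, 1.278 and -0.015 in the 3 comparisons and that of Angptl4 to Lpl by 0.87 in obese against lean fat, where exact permutation p = 0.0667 is the smallest possible for the called ones. With 1 library left out, Slc27a1 to Slc27a4 ran from -1.352 to -1.047, 1.245 to 1.414 and -0.015 to 0.291, Angptl4 to Lpl from 1.047 to 1.229 in obese against lean and 0.374 to 0.877 in weight loss against lean fat, and Gpihbp1 to the endothelial markers from -0.075 to 0.112 in weight loss against obese fat. The lowest level of any of the 10 genes was 1.85 CPM, for Angptl8, whose weight loss libraries had a coefficient of variation of 105.0%.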

Other observations

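Of 8 mesothelial markers tested, 1 rose in obese fat (Msln, named after its value was seen). Without the 4 libraries richest in epididymal transcripts edgeR called 0 of the 8 in obese against lean fat, with 1 at an unadjusted p under 0.05. Krt19, the most abundant, stood at 158, 138 and 136.5 CPM in lean, obese and weight loss fat. No marker of smooth muscle (7 tested, Myh11 at 582, 241 and 236 CPM), lymphocytes (9 tested, Klrb1c at 6.10, 32.7 and 1.34 CPM), skeletal muscle (6 tested, Acta1 at 131, 116 and 67.6 CPM) or red cells (4 tested, Hba-a1 at 1089, 904 and 958 CPM) passed in edgeR in any comparison. In obese against lean fat 1, 1, 1 and 0 of them had an unadjusted p under 0.05, and DESeq2 and limma-voom called 0. Between weight loss and obese fat 2, 1, 0 and 0 had such a p, DESeq2 called 1 smooth muscle and 1 lymphocyte marker, and limma-voom 1 of smooth muscle. Between weight loss and lean fat 0, 0, 1 and 0 had such a p and neither tool called any. Klrb1c was uneven by library, with peaks of 92.4 (obese replicate 2), 64.9 (obese replicate 5) and 25.4 CPM (lean replicate 1). These are among the 4 libraries richest in epididymal transcripts. Obese replicate 4, also among those 4, held 1.78 CPM of Klrb1c, and no other library held more than 3.15 CPM. The source of the peaks was not tested. Acta2, of smooth muscle, and Muc16, of mesothelium, were at 0 in each library. Of 13 epididymal markers tested, edgeR called 1 higher in obese fat (Lcn5, named after its value was seen), with 1 at an unadjusted p under 0.05 and 0 called by DESeq2 or limma-voom. Without the 4 libraries richest in these transcripts edgeR called 0 of 11 tested there, with 7 at an unadjusted p under 0.05. Lcn5 was at 1162 CPM in obese replicate 4, and its highest level in any other library was 4.30 CPM, in obese replicate 5. The epididymal markers summed to 1.76 to 3585 CPM in lean, 9.07 to 8576 CPM in obese and 1.02 to 66.1 CPM in weight loss libraries, with 3 of the 14 at 0 in each weight loss library. In weight loss fat edgeR and limma-voom called 0, with 12 at an unadjusted p under 0.05 against obese fat (9 called by DESeq2) and 8 against lean fat (4 called by DESeq2). The most abundant, Lcn8, averaged 234, 1006 and 0.260 CPM. The most abundant progenitor marker, Dcn, averaged 437, 457.5 and 579 CPM.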
